A study of Rattus norvegicus with 6 samples.

Results

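Elastic fiber genes were examined in cultured VSM cells of the soleus feed artery (SFA), which supplies the soleus, a calf muscle. The set was fixed by name and holds the elastin gene Eln, the fibrillin genes Fbn1 and Fbn2, the fibulin genes Fbln1, Fbln2, Fbln5, Efemp1 and Efemp2, and the microfibril-associated protein genes Mfap4 and Mfap5. All 10 were found by symbol among the 14475 genes of the count table. Cells came from male Fischer 344 rats (labelled Fisher 344) that were either young (4 months, n = 3) or old (24 months, n = 3), with 1 polyadenylated RNA library per rat. The labels name no treatment, allele or transgene, and the number of passages in culture is not given in the sources used here. The comparison asks which elastic fiber genes differ with age in these cells.

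Elastic fibers give arteries their recoil. They form when secreted tropoelastin, the product of Eln, is laid down on a scaffold of fibrillin microfibrils and cross-linked by lysyl oxidases, and fibulins guide tropoelastin and the cross-linking enzymes to that scaffold. VSM cells are the main source of elastin in the arterial wall, where most of it is deposited during development and early growth.

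Gene counts summed to between 44235674 and 59700887 per library, and values are given as CPM (counts divided by the TMM-scaled library total, in units of 1e+06), which are not corrected for gene length. Even numbers made up 68.7% to 71.1% of all counts from 1 to 19. Each library also summed to more counts than the highest number of reads per sample given in the paper. Separate counting of the mates of a pair would raise this share and make intervals for low counts too narrow, which was not tested. All 11 contractile smooth muscle markers examined were in the table, at a summed level of 11329 to 21580 CPM in young and 3481 to 5611 CPM in old libraries. For 10 of the 11 the old libraries all lay below the young libraries, as for 14.7% of all genes. Of 13 adventitial fibroblast markers, 12 were in the table and 11 of these had a fold change above 0 in old, as did 52% of all genes. For 5 of the 12 the old libraries all lay above the young libraries (14.5% of all genes), and for 7 the groups overlapped. Their summed levels were 726 to 1048 CPM in young and 1713 to 3167 CPM in old. Endothelial markers (6 of 11 in the table, including Pecam1 but not Cdh5, Tie1, Nos3, Emcn or Cldn5) summed to at most 45.2 CPM, and the macrophage list (2 of 10 in the table, without Ptprc, Adgre1 or C1qa) to at most 2.9 CPM. The skeletal muscle list (2 of 11 in the table, without Myod1, Myog, Pax7 or Ckm) summed to 84.9 to 263 CPM in young and 27.8 to 46 CPM in old. Its 2 genes differed in direction, with a log2 fold change of -3.51 for Acta1 and 0.92 for Tnnt3. These bulk counts cannot tell a change in the proportion of a cell type from a change in RNA per cell.

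Efemp1 was the only elastic fiber gene whose old libraries all lay on one side of the young libraries, and it was higher in old VSM cells. A gene was called a DEG where its p-adjusted was below 0.05 and its log2 fold change 1 or more in either direction. The study applied these limits to the Wald test of DESeq2. The quasi-likelihood F test of edgeR, the source of edgeR values unless another test is named, called 0 of the 10 genes and 0.00691% of all genes, a background of 1 gene. Its unadjusted p was below 0.05 for 1 of 10, again Efemp1, and for 22.6% of all genes. DESeq2 called 1 of 10, in the direction of old, and 5.82% of the 13622 genes with an adjusted p (2.37% higher and 3.45% lower in old), while limma-voom called 0 of 10 (Efemp1 alone had an unadjusted p below 0.05) and 0% of all genes. Groups did not overlap for 1 of 10 elastic fiber genes, compared with 29.2% of all genes (14.5% higher and 14.7% lower in old). Of the 10 fold changes, 7 were above 0 and 3 below, with a median of 0.37 on the log2 scale, whereas 52% of all genes were above 0, 48% below, and the median of all genes was 0.018. Single values of 3 against 3 libraries cannot reach a two-sided p below 0.1 in an exact permutation test.

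**Figure D1:**
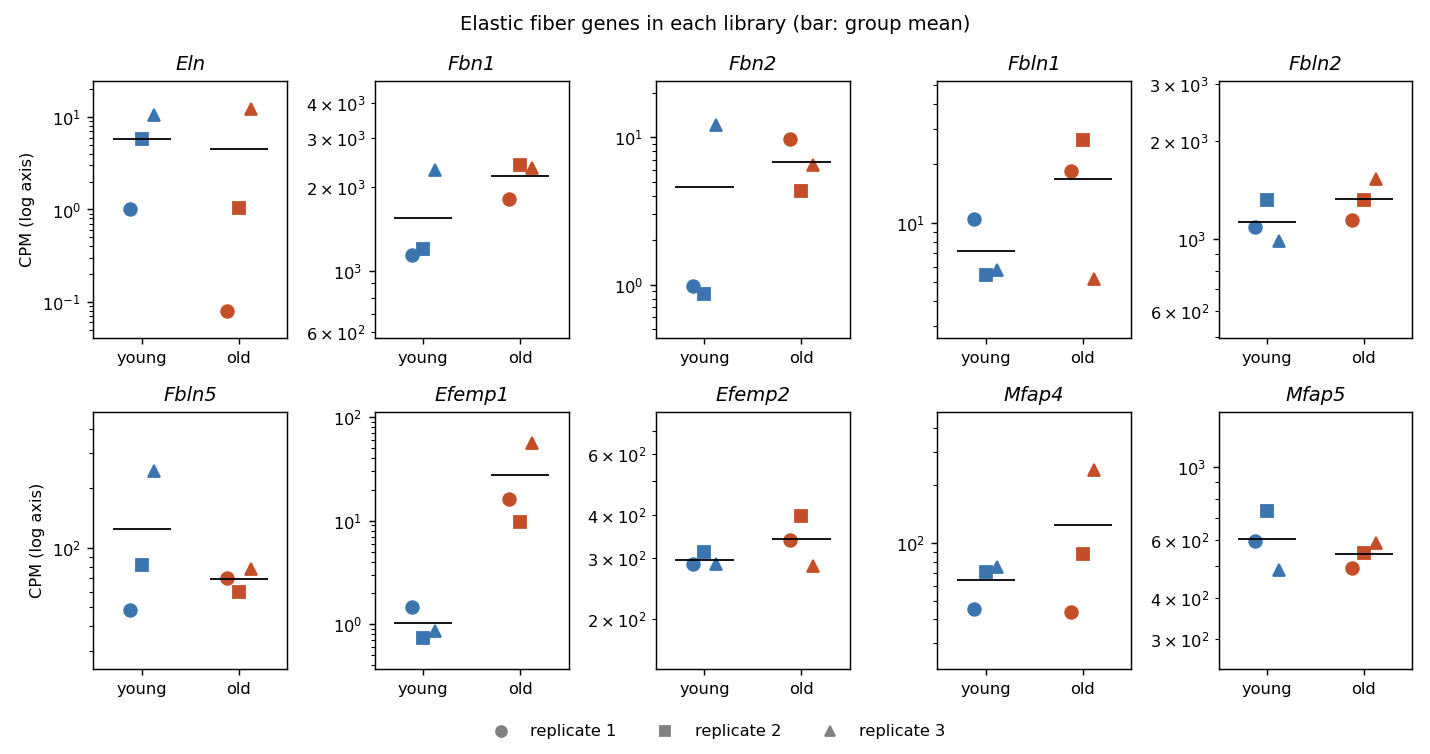
Normalized level of each of the 10 elastic fiber genes (CPM, log axis, a separate scale in each panel) in the 3 young (blue) and 3 old (orange) libraries, with marker shape for the replicate number and a bar at the group mean. Efemp1 is at 0.731 to 1.46 CPM in young and 9.79 to 56.4 CPM in old, and the groups of the other 9 genes overlap.

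Efemp1 (ENSRNOG00000003553) encodes fibulin-3, a short secreted fibulin that binds other matrix proteins and the metalloproteinase inhibitor TIMP-3. It had 66, 44 and 42 counts in young replicates 1, 2 and 3 and 809, 509 and 3023 counts in old replicates 1, 2 and 3. As CPM these were 1.46, 0.731 and 0.855 in young and 16.3, 9.79 and 56.4 in old. The lowest old library was above the highest young library, and old replicate 3 was the highest of all. The 95% Poisson intervals of the young counts, which cover counting error only, lay between 30.3 and 84.0 counts. Efemp1 went from 1.02 ± 0.391 CPM (SD, n = 3) to 27.5 ± 25.3 CPM (SD, n = 3), a fold of 27.2 and a log2 fold change of 4.77 (standard error, SE, 0.78, 95% interval 2.90 to 6.63, edgeR adjusted p = 0.06). DESeq2 gave an adjusted p of 3.32e-11 and limma-voom of 0.128. Leaving out any 1 library gave log2 fold changes between 3.68 (without old replicate 3) and 5.17, and Efemp1 was called by edgeR without old replicate 1 (log2 fold change 5.03, adjusted p = 0.033). In that setting edgeR called 732 genes in all, compared with 1 with all libraries. The fibroblast markers summed to 1713, 2533 and 3167 CPM in old replicates 1, 2 and 3. The old library with the highest Efemp1 also had the highest marker sum, and the other 2 were in the opposite order. Single markers did not all follow the sum. Among old libraries Col14a1, Ogn, Scara5, Clec3b and Pi16 were highest in replicate 3. Pdgfra, Dcn, Lum and Dpep1 were highest in replicate 2, and Dpt, Cd34 and Gsn in replicate 1. The part of the fibroblast markers in the Efemp1 difference was not tested.

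Efemp2 (ENSRNOG00000020587) encodes fibulin-4, the close relative of fibulin-3 that brings lysyl oxidase to tropoelastin and without which elastic fibers do not form. It had 288, 311 and 287 CPM in young and 339, 398 and 285 CPM in old libraries. Old replicate 3, the library with the most Efemp1, was close to young replicates 1 and 3 in Efemp2, and the groups overlapped. The log2 fold change was 0.20 (SE 0.14, 95% interval -0.14 to 0.55, edgeR adjusted p = 0.416). The fibulin-4 gene varied least of the 10 among young libraries, with a coefficient of variation (CV) of 4.58%.

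The promoters of this pair are shown because the genes are related and the groups overlapped for Efemp2 but not for Efemp1. RefSeq start site windows (GRCr8) were matched by symbol for 7 of the 10 genes, namely Efemp1, Efemp2, Fbn1, Fbn2, Fbln2, Fbln5 and Mfap5. Each window spans 300 bases, at chr14:106811614-106811913 for Efemp1 and chr1:212211472-212211771 for Efemp2, both on the plus strand. Capitals mark the GC box letters GGGCGG on either strand (printed as CCGCCC on the other strand) and the AP-1 type letters TGANTCA, which do not overlap each other.
Efemp1: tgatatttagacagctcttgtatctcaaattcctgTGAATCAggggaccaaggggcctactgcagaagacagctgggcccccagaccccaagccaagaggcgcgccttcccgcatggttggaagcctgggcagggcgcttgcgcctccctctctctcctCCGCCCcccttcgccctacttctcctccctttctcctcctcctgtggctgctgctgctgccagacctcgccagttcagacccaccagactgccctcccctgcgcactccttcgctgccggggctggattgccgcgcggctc
Efemp2: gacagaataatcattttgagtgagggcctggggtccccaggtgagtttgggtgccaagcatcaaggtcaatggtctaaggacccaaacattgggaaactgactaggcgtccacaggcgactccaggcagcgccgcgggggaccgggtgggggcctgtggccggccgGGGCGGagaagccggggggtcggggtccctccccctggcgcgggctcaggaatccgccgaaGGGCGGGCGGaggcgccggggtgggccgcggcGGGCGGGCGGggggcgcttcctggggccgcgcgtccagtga
In these windows Efemp1 held 1 GC box and 1 match to TGANTCA. That match has A at the open position, where the AP-1 consensus has C or G. Efemp2 held 5 GC boxes, some of which overlap each other, and no match to TGANTCA. The GC box was in 4 of the 7 windows and in 33.1% of the 33469 rat windows of this length. TGANTCA, with any base at the open position, was in 1 of 7 and in 7.33%. The letters GGAATG of the TEAD motif were in the windows of Fbln5 and Fbn2 (14.2% of all). No window of the 7 held TATAAA (14.2% of all), CACGTG (6.42% of all) or a CArG box (1.64% of all). GC content was 63.7% for Efemp1 and 71% for Efemp2, compared with a median of 51.7% over all windows. A match is a description of letters and not a binding site.

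Eln (ENSRNOG00000001469) encodes tropoelastin, the core of the fiber. It had few reads, with 46, 348 and 517 counts in young replicates 1, 2 and 3 and 4, 54 and 659 counts in old replicates 1, 2 and 3. In CPM these were 1.02, 5.78 and 10.5 in young and 0.0804, 1.04 and 12.3 in old. Both the lowest and the highest value were in old libraries, so the old group enclosed the young group. The 4 counts of old replicate 1 have a Poisson interval of 1.09 to 10.2 counts, which covers counting error only. Eln had the highest CV of the 10 genes among old libraries, 152%, higher than in 99.9% of the 12257 genes with a mean above 1 CPM. In young its CV was 82.3%. The log2 fold change was -0.37 (SE 1.48, 95% interval -3.92 to 3.19, edgeR adjusted p = 0.898), an interval that holds large changes in either direction. limma-voom, which works on log values, gave -1.93 (adjusted p = 0.515). The sign of the edgeR value turned when young replicate 3 (0.39), or old replicate 1 (0.21) or 2 (0.09), was left out. Without old replicate 3 the edgeR log2 fold change was -3.36 (adjusted p = 0.307). DESeq2, left without old replicate 3, called Eln as lower in old (log2 fold change -3.38, adjusted p = 0.0412), a setting chosen after the data had been examined.

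The genes whose profile over the 6 libraries was most like that of Eln were sought among all genes by the root mean square difference of log2 CPM, each gene centered on its own mean. The nearest was Epha7 (0.672 on the log2 scale), followed by Mgp (0.741), Egflam (0.975), Akr1b10 (1.21) and a gene without a symbol, ENSRNOG00000067465 (1.24). Mgp, which encodes the calcification inhibitor matrix Gla protein, was the one with many reads. It had 96.4, 229.8 and 448 CPM in young and 15.5, 35.6 and 463 CPM in old libraries, so that old replicate 1 was lowest and old replicate 3 highest, as for Eln. These genes were picked from all genes for their likeness to Eln, so the shared order follows from the search and is no separate result. Epha7 and ENSRNOG00000067465 were at 0 CPM in old replicate 1. Among the elastic fiber genes the profile nearest to Eln was that of Mfap4, at 1.89.

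The fibrillins form the microfibril on which elastin is deposited. Fbn1 (ENSRNOG00000007302), the fibrillin of adult tissue, had 1142, 1201 and 2307 CPM in young and 1815, 2403 and 2339 CPM in old libraries. Young replicate 3 was close to old replicates 2 and 3, while the other 2 young libraries lay below every old library. The log2 fold change was 0.50 (SE 0.31, 95% interval -0.25 to 1.24, edgeR adjusted p = 0.369). Without young replicate 3, the only young library within the range of the old group, it was 0.90 (edgeR adjusted p = 0.154). DESeq2 without that library, a setting chosen after the data had been examined, gave an adjusted p of 8.35e-05. Its fold change was below the threshold of the study.

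Fbn2 (ENSRNOG00000043219), the fibrillin used mostly in development, had 44, 52 and 591 counts in young and 484, 225 and 344 counts in old libraries. As CPM these were 0.975, 0.864 and 12 in young and 9.73, 4.33 and 6.42 in old. Young replicate 3 was the highest library and the other 2 young libraries were the lowest, which gave a CV of 139% in young, higher than in 99.9% of genes. The log2 fold change was 0.56 (SE 1.03, 95% interval -1.91 to 3.03, edgeR adjusted p = 0.761), and without young replicate 3 it was 2.89. limma-voom gave 1.60 with all libraries (adjusted p = 0.33). DESeq2 called Fbn2 without young replicate 3 (adjusted p = 2.27e-08), whereas edgeR did not (adjusted p of at least 0.107 in all its alternatives). That library alone made the groups overlap, and the DESeq2 setting was chosen after the data had been examined. The small adjusted p therefore follows in part from which library was left out.

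Among the other fibulins, Fbln5 (ENSRNOG00000050539) encodes fibulin-5, which tethers tropoelastin to microfibrils and to integrins. It had 48.6, 81.9 and 243 CPM in young and 70.5, 59.6 and 78.4 CPM in old libraries. The old libraries were close to each other, with a CV of 13.6%, and young replicate 3 stood above all others, which gave a young CV of 83.4%. Its log2 fold change of -0.84 (SE 0.56, 95% interval -2.19 to 0.51, edgeR adjusted p = 0.4) became 0.09 without that library. Fbln1 (ENSRNOG00000014137), a fibulin of elastic fibers and basement membranes, had 10.4, 5.47 and 5.76 CPM in young and 18.3, 26.2 and 5.19 CPM in old libraries. Old replicates 1 and 2 were above every young library and old replicate 3 was below them all. The log2 fold change was 1.20 (SE 0.58, 95% interval -0.20 to 2.60, edgeR adjusted p = 0.268), and without old replicate 3 it was 1.63 (edgeR adjusted p = 0.15). DESeq2 called the gene without old replicate 3 (1.62, adjusted p = 0.000821). That library alone made the groups overlap, and the DESeq2 setting was chosen after the data had been examined. Without old replicate 2 the log2 fold change was 0.71 (edgeR adjusted p = 0.565, DESeq2 adjusted p = 0.548). Fbln2 (ENSRNOG00000007338), which binds elastin and fibrillin at the surface of the fiber, was steady relative to most of the 10 genes. Its levels were 1089, 1319.7 and 989 CPM in young and 1142, 1323 and 1534 CPM in old. Its log2 fold change was 0.24 (SE 0.18, 95% interval -0.19 to 0.66, edgeR adjusted p = 0.451).

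Mfap4 (ENSRNOG00000045683) encodes a microfibril-associated glycoprotein that binds tropoelastin and fibrillin. It had 45.6, 70.9 and 75.1 CPM in young and 44, 87.4 and 242 CPM in old libraries. The old group enclosed the young group, as for Eln, with old replicate 3 highest. The log2 fold change was 0.96 (SE 0.60, 95% interval -0.48 to 2.41, edgeR adjusted p = 0.366). It was 0.04 without old replicate 3 and 1.37 without old replicate 1 (edgeR adjusted p = 0.118 for the latter). Without old replicate 1 DESeq2 called Mfap4 (1.36, adjusted p = 0.0215). In that setting, chosen after the data had been examined, DESeq2 called 1377 genes in all, compared with 793 with all libraries. Mfap5 (ENSRNOG00000015505), whose product MAGP-2 binds fibrillins, had 595, 738 and 486 CPM in young and 494, 549 and 588 CPM in old. Each old library lay within the range of the young libraries, and the log2 fold change was -0.16 (SE 0.18, 95% interval -0.58 to 0.27, edgeR adjusted p = 0.608).

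**Figure D2:**
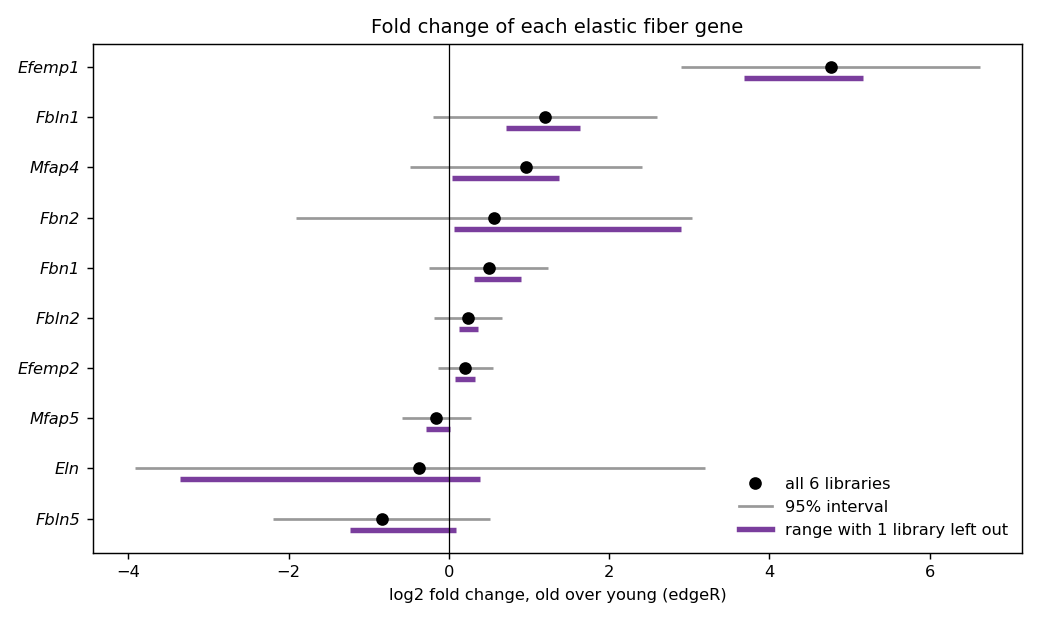
Log2 fold change of each elastic fiber gene, old over young, from edgeR with all 6 libraries (points), its 95% interval (grey lines) and its range with 1 library left out (purple bars). The interval of Efemp1 runs from 2.90 to 6.63 and those of the other 9 genes include 0, with Eln the widest at -3.92 to 3.19.

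The 10 genes thus differed in how steady they were. The 4 genes Fbln2, Efemp2, Mfap5 and Fbn1 spanned at most 1.07 on the log2 scale from the lowest to the highest library, whereas Efemp1 spanned 6.20 and Eln 6.69. In between were Fbn2 at 3.74, Mfap4 at 2.46, Fbln1 at 2.33 and Fbln5 at 2.32. Young replicate 3 had the most Fbn2 and Fbln5 of all libraries. Old replicate 3 had the most Eln, Efemp1, Mfap4 and Fbln2, and the least Fbln1 and Efemp2, both close to the lowest young libraries. Over the 12257 genes with a mean above 1 CPM the median CV was 9.94% in young and 14.6% in old. Young CVs were above the young median for 9 of the 10 elastic fiber genes, all except Efemp2. In old, Fbln5 (13.6%) and Mfap5 (8.68%) were below the old median, and Fbn1 (14.8%) and Fbln2 (14.7%) were close to it.

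**Figure D3:**
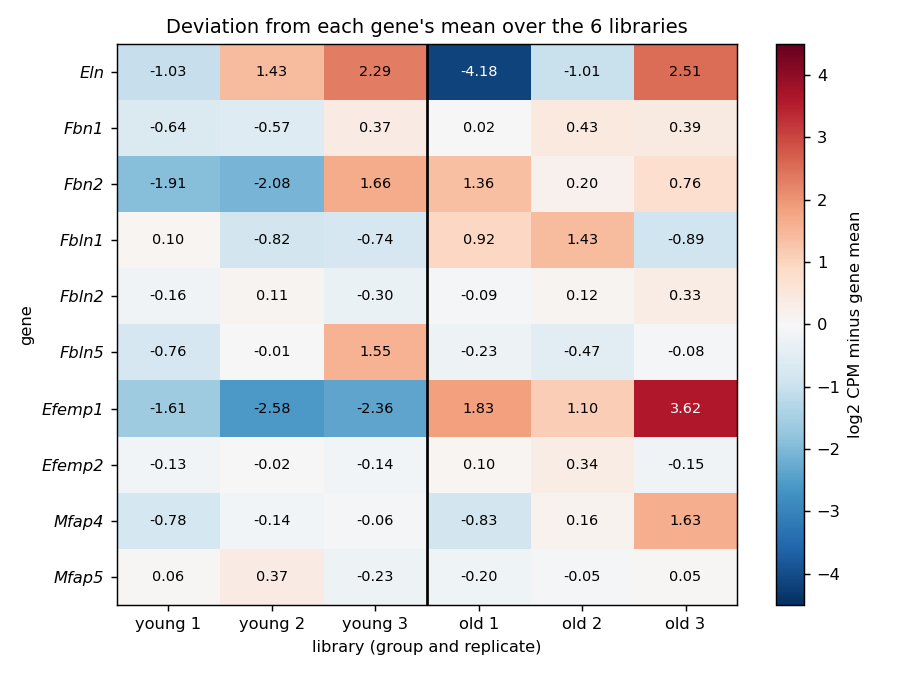
Deviation of each elastic fiber gene from its own mean over the 6 libraries (log2 CPM, colour and printed value), with young libraries left and old libraries right of the black line. Efemp1 is below its mean in the 3 young and above it in the 3 old libraries, and Eln runs from -4.18 in old replicate 1 to 2.51 in old replicate 3.

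Counts of the 10 genes together made up 0.329%, 0.376% and 0.423% of the gene counts in young replicates 1, 2 and 3 and 0.391%, 0.503% and 0.51% in old replicates 1, 2 and 3, so the groups overlapped. Fbn1, Fbln2 and Mfap5 held between 85.6% and 87.9% of these counts in every library, a share of reads that is not corrected for gene length. Efemp1 held 0.0194% to 0.0454% in young and 0.201% to 1.1% in old, and Eln between 0.00204% and 0.239% over the 6 libraries.

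Ratios within a library do not depend on the scaling between libraries, and 3 were computed. Counts of Fbn2 were 0.0853%, 0.072% and 0.521% of those of Fbn1 in young and 0.536%, 0.18% and 0.274% in old libraries. The log2 ratio was -9.41 ± 1.58 in young and -8.39 ± 0.79 in old (SD, n = 3 each, p = 0.3 from an exact two-sided permutation test, adjusted p = 0.4 over the 3 ratios). Counts of Eln were 0.0892%, 0.482% and 0.456% of those of Fbn1 in young and 0.00443%, 0.0432% and 0.526% in old libraries. That log2 ratio was -8.53 ± 1.38 in young and -11.07 ± 3.45 in old (SD, n = 3 each, exact permutation p = 0.4, adjusted p = 0.4). Counts of Mfap4 were 7.65%, 9.6% and 15.5% of those of Mfap5 in young and 8.9%, 15.9% and 41.2% in old libraries, with a log2 ratio of -3.26 ± 0.52 in young and -2.47 ± 1.12 in old (SD, n = 3 each, exact permutation p = 0.4, adjusted p = 0.4). For each ratio the groups overlapped and the difference was within the spread between libraries.

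Genes that act with the 10 in making, cross-linking, breaking down or binding the elastic fiber were described from 4 further lists. Of these 45 genes edgeR called 0, with 13 (28.9%, compared with 22.6% of all genes) at an unadjusted p below 0.05, limma-voom called 0 and DESeq2 called 5, compared with 5.82% of all genes with an adjusted p. For 11 of the 45 (24.4%) the groups did not overlap, compared with 29.2% of all genes. The list of 18 other microfibril and elastic fiber proteins had 17 in the table, without Mfap2. Of these, 11 had a fold change above 0 and 6 below (median 0.41), and DESeq2 called 1 as lower and 0 as higher. The called gene was Ltbp4, a latent TGF-β binding protein that takes part in elastic fiber assembly with fibulin-5. It had 15.5, 18 and 10.2 CPM in young and 3.12, 5.94 and 3.27 CPM in old, a log2 fold change of -1.82 (SE 0.34, edgeR adjusted p = 0.0658, DESeq2 adjusted p = 1.33e-05). The groups of Ltbp4 did not overlap. Ltbp2, a fibrillin-binding member of the same family and one of the 2 genes of the list with the most reads, had 1368, 1891 and 1936 CPM in young and 812, 1131 and 1044 CPM in old, which did not overlap either (log2 fold change -0.80, SE 0.20, edgeR adjusted p = 0.113, DESeq2 adjusted p = 0.00326 with a fold change below the threshold). The other was Vcan, a large proteoglycan of the vessel wall, with a log2 fold change of 0.41 (edgeR adjusted p = 0.501) and overlapping groups.

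Cross-linking and processing genes had the smallest fold changes of the lists. All 9 (lysyl oxidases, the copper transporter Atp7a, the convertase Furin, the chaperone Fkbp10 and the protease Bmp1) had overlapping groups, with log2 fold changes from -0.43 to 0.29 (median 0.16), and DESeq2 called 0, as did edgeR, whose unadjusted p was under 0.05 for 0 of them. Loxl2, the lysyl oxidase with the most reads, had 753, 705 and 1378 CPM in young and 809.6, 559.7 and 732 CPM in old. Its log2 fold change was -0.43 (SE 0.30, edgeR adjusted p = 0.41), and that of Fkbp10 was 0.16 (SE 0.13, edgeR adjusted p = 0.498).

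Of 13 elastin-degrading proteases and TIMP inhibitors, 9 were in the table, without Mmp7, Mmp12, Ctss and Timp4. Old libraries lay above young libraries for 5 and below for 1 of the 9 (14.5% and 14.7% of all genes), with 6 fold changes above 0, 3 below and a median of 0.60. The 5 were the proteases Mmp2, Mmp14, Ctsk and Ctsl and the inhibitor Timp2. Ctsk had a log2 fold change of 0.81 (edgeR adjusted p = 0.0763, DESeq2 adjusted p = 0.000668). That of Timp2 was 0.60 (edgeR adjusted p = 0.208, DESeq2 adjusted p = 0.1). DESeq2 called 2 as higher and 1 as lower (2.37% and 3.45% of all genes with an adjusted p). Mmp2, gelatinase A, had 1430.1, 1249.9 and 789 CPM in young and 1877, 4720.1 and 3973 CPM in old, a log2 fold change of 1.61 (SE 0.40, edgeR adjusted p = 0.108, DESeq2 adjusted p = 0.000782). Mmp14, the membrane protease that activates it, had 414, 447 and 499.6 CPM in young and 628, 933 and 1724 CPM in old (log2 fold change 1.27, SE 0.36, edgeR adjusted p = 0.13, DESeq2 adjusted p = 0.00855). Both were called by edgeR without old replicate 1, at 1.91 for Mmp2 (adjusted p = 0.0299) and 1.55 for Mmp14 (adjusted p = 0.0369). In that setting edgeR called 732 genes in all, compared with 1 with all libraries. The DESeq2 call of Mmp14 was lost without young replicate 1 (adjusted p = 0.0744), without young replicate 2 (adjusted p = 0.0805) and without old replicate 3 (log2 fold change 0.77). Mmp3, stromelysin, went the other way at a low level, with 2.35, 0.864 and 0.855 CPM in young and 0.643, 0.269 and 0.224 CPM in old (log2 fold change -1.83, edgeR adjusted p = 0.167, DESeq2 adjusted p = 0.0481). The edgeR value for Mmp3 was -1.18 without young replicate 1 and -2.44 without old replicate 1, and DESeq2 kept its call only without old replicate 1, with adjusted p-values of 0.0728 to 0.314 without any of the others. Ctsl, a lysosomal protease, had 696, 727 and 676 CPM in young and 1003, 985 and 2173 CPM in old (log2 fold change 0.99, edgeR adjusted p = 0.166). DESeq2 gave Ctsl an adjusted p of 0.033 with a fold change below the threshold, and 1.88e-07 to 0.148 with 1 library left out. The edgeR value was 0.51 without old replicate 3.

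Of 11 receptor genes for elastin, fibrillin and fibulin-5, 10 were in the table, without Itgb6, with 4 fold changes above 0, 6 below and a median of -0.20. Old libraries lay below young libraries for 3 of the 10, Itgb1, Itgav and Itga4, and above for 0 (14.7% and 14.5% of all genes). Itgb1, an integrin subunit that pairs with many partners, had 3028, 3334 and 5700.5 CPM in young and 2816, 1759 and 2121 CPM in old (log2 fold change -0.85, SE 0.31, edgeR adjusted p = 0.189). DESeq2 gave Itgb1 an adjusted p of 0.0487 with a fold change below the threshold, and 0.00914 to 0.231 with 1 library left out. Itgav, the partner in integrins that bind fibrillin, had 499, 488 and 636 CPM in young and 473, 399.7 and 454 CPM in old (log2 fold change -0.29, edgeR adjusted p = 0.284). Itga4 had 0.886, 4.99 and 30.3 CPM in young and 0.121, 0.423 and 0.28 CPM in old, a log2 fold change of -5.44 (edgeR adjusted p = 0.111, DESeq2 adjusted p = 0.000733) that became -3.41 without young replicate 3.

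**Figure D4:**
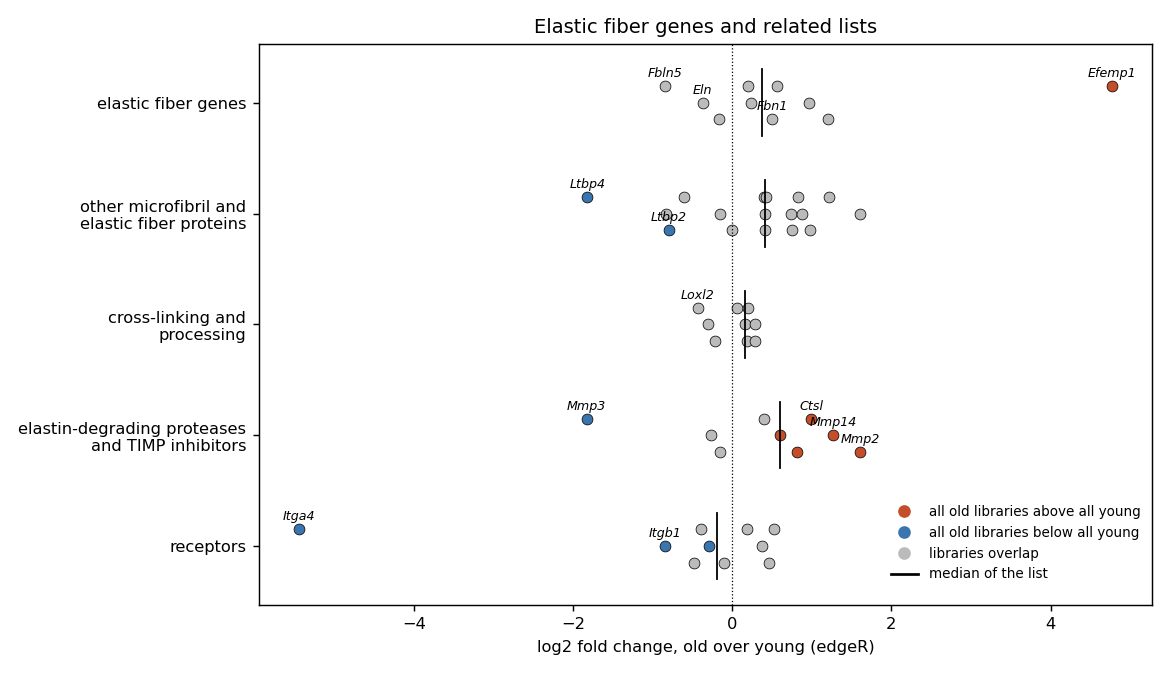
Log2 fold change, old over young, of the 10 elastic fiber genes and of the 4 related lists (each point a gene, black bar the median of the list). Orange and blue points are genes whose 3 old libraries all lie above or below the 3 young libraries, and the elastic fiber genes hold 1 such gene, Efemp1 at 4.77.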

How the data were processed

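Polyadenylated RNA of cultured VSM cells from 3 young and 3 old rats was sequenced as stranded paired-end libraries. The authors deposited raw counts per gene, which are not normalized. Per the Methods and the submitters' processing notes, reads were trimmed with cutadapt 3.5 through Trim Galore 0.6.7, aligned with STAR 2.7.10b to the rat assembly Rnor 6.0 and counted with featureCounts of Subread 2.0.8. How featureCounts treated strand, mates and multi-mapping reads is not stated in any source used here. Reads shared with near-identical or antisense genes therefore cannot be told apart. All 14475 genes reached 10 counts in 3 or more libraries, so a filter preceded deposit. The table gives Ensembl identifiers and a symbol, whereas the Methods name a RefSeq annotation, so which gene models were counted is not settled here.

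Old was compared with young in R 4.3.3 with edgeR 4.0.16 (TMM, quasi-likelihood F test, no covariates, Benjamini-Hochberg adjustment over all genes). Standard errors came from dividing the size of each log2 fold change by the root of its F. DESeq2 1.42.0 (Wald test, default filtering, which left 853 genes unadjusted) and the voom method of limma 3.58.1 served as alternatives, as did RLE or library size scaling, a CPM filter, edgeR's likelihood ratio test, halved counts, other thresholds, the replicate number as a block and each library left out. DESeq2 with each library left out, or with filtering at 0.05, was a later addition, chosen after seeing the data. The p-values measure the spread between cultures of separate rats. The main edgeR fit and the default DESeq2 and limma-voom fits were first tested on simulated data, and the other settings were not. The members and lists were chosen with earlier results of these data known. A further marker list is not reported here. Named were all members, the 2 genes with the most reads in each related list, their genes with groups apart and a log2 fold change of 1 or more in size, and the 5 genes nearest to Eln. Ctsk and Timp2 were named in addition, as genes of the protease list with groups apart and a smaller fold change. Gene coordinates were not used, except for promoter windows of RefSeq (GRCr8).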

Additional observations from a re-analysis of the deposited data

How the results depend on the processing

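With any of the 6 libraries left out, edgeR called between 0 and 732 genes, 0 or 1 of the 10 elastic fiber genes and 0 to 3 of the 45 related genes, compared with 1, 0 and 0 with all libraries. The high values, 732, 1 (Efemp1) and 3, came without old replicate 1. The DESeq2 test called 793, 1 and 5, and with a library left out 731, 551 and 602 genes (without young replicates 1, 2 and 3) and 1377, 615 and 651 (without old replicates 1, 2 and 3), of which 1 to 3 were elastic fiber genes (3 without old replicate 3) and 3, 4, 6 or 9 related genes (9 without old replicate 1). With filtering at 0.05 DESeq2 gave 805, 1 and 5. The edgeR likelihood ratio test gave 724, 1 and 4, an adjusted p threshold of 0.1 gave 381, 1 and 1, and a filter of 1 CPM in 3 libraries gave 65 genes but 0 elastic fiber genes. limma-voom called 0 genes, with 3347 at an unadjusted p below 0.05, among them Efemp1 at 0.0108. Efemp1 was the elastic fiber gene called in each setting with 1 call, and its adjusted p was 1.64e-07 in the likelihood ratio test and between 0.033 and 0.234 in the other edgeR alternatives. Signs turned, with a library left out, for Eln (-3.36 to 0.39 in edgeR, with 0.21 and 0.09 without old replicates 1 and 2, and 0.09, 0.2 and 0.39 in DESeq2), Fbln5 (-1.23 to 0.09 in edgeR, 0.09 in DESeq2) and Mfap5 (-0.29 to 0.01). The cause of these differences was not tested. With a library left out, the old minus young differences of the log2 ratios kept their sign, between 0.5 and 1.93 for Fbn2 to Fbn1, -4.28 and -0.84 for Eln to Fbn1, and 0.19 and 1.3 for Mfap4 to Mfap5.

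With the replicate block edgeR called 1 gene and 0 elastic fiber genes. Deviations of same-numbered libraries correlated at 0.063, 0.322 and 0.313 over 12257 genes, and young replicate 1 correlated best with old replicate 2 (0.354), so the numbers were not taken as pairs. Few counts limit Eln, Fbn2 and Efemp1, each under 100 counts in at least 2 libraries.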

Other observations

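The fibulin family has 2 further genes in the table, described here after their values had been seen. Fbln7, which encodes fibulin-7, had 8.06, 8.01 and 8.75 CPM in young and 5.39, 7.04 and 63.5 CPM in old libraries, so that old replicate 3, the library with the most Efemp1, Mfap4 and Eln, stood apart and the other 2 old libraries lay below the young group (edgeR adjusted p = 0.34). Hmcn1, which encodes the very large fibulin relative hemicentin-1, had 9.37, 16.7 and 102 CPM in young and 14.3, 22.3 and 35.2 CPM in old libraries, with young replicate 3 highest, as for Fbln5 and Fbn2 (edgeR adjusted p = 0.588).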
